A study of Mus musculus with 2 samples.

Results

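The potassium channel genes of mouse pancreatic islet cells are described here, that is, the genes whose symbol starts with Kcn, which covers pore-forming and auxiliary subunits. A gene was taken if it had a row in the tables of both libraries, with 1 gene of the family and 3 non-coding RNAs named after a channel gene left out. This gave 82 members of the 27729 genes found in both tables. All 82 identifiers were found in the GENCODE M21 annotation of GRCm38, and 81 are protein coding there. The other, Kcnmb4os2, is an antisense RNA with 5 unique molecular identifiers (UMIs, each 1 captured transcript) in all. The samples were 2 libraries of control islets from C57BL/6J mice of 8 weeks, with no treatment or genetic change stated in the labels. Each was made with RevGel-seq, in which every cell is bound to a barcoded bead inside a gel that can be dissolved again, from 10000 input cells. Both are technical replicates of 1 islet preparation, so the errors and p-values below hold the spread between 2 library preparations of the same cells and no spread between animals.

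Potassium channels let potassium leave the cell and so pull the membrane towards rest. In islet cells they set the resting potential, end action potentials and thereby shape calcium entry and hormone release. Two-pore channels carry a background leak, inward rectifiers hold the resting state, voltage-gated channels repolarise the membrane, and calcium-activated channels link it to calcium. Auxiliary subunits change the gating or trafficking of these pores. Insulin is made by beta cells, glucagon (Gcg) by alpha cells, somatostatin (Sst) by delta cells and pancreatic polypeptide (Ppy) by gamma cells.

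Library 1 held 735 cells with 15931154 UMIs and library 2 held 748 cells with 17440292 UMIs, and they shared 0 barcodes. A cell was counted for a hormone when that hormone (Ins1 and Ins2 together for insulin) reached 1% of its UMIs. This placed 1390 of the 1483 cells in 7 groups. In libraries 1 and 2 these held 182 and 190 cells with insulin only, 182 and 174 with Gcg only, 35 and 23 with Sst only, 54 and 68 with Ppy only, 65 and 86 with Gcg and Ppy, 77 and 71 with Sst and Ppy, and 91 and 92 with no hormone. The other 93 cells had further mixtures and were not used. The sums of the marker lists followed the hormones. The beta list summed to 54311 and 55877 CPM (UMIs per 1000000 UMIs that are not of the hormone genes) in the insulin-only cells, and the alpha list to 45739 and 47295 in the Gcg-only cells. The delta list stood at 6711 and 6604 in the Sst-only cells, with Lepr at 0, and the gamma list at 54481 and 41986 in the Ppy-only cells, with Aqp3 at 0. Fxyd6 of the gamma list went the other way, with 136 and 127 in Ppy-only cells. It had 219 and 219 in Gcg-only, 399 and 435 in insulin-only and 628 and 701 in Sst-only cells. The Sst-only cells also carried the beta list at 15248 and 15541 and the acinar list at 312 and 154, of whose 5 genes Cpa1 and Pnlip were at 0. Endothelial and leukocyte lists stayed at or under 580 CPM in all 6 hormone groups. The part of these other markers in the results was not tested, and the counts without cells that carried endothelial and leukocyte markers are given with the alternatives.

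Hormone genes were left out of the scale because they took 37.8% and 41.4% of all UMIs in the insulin-only cells but 9.56% and 10.1% in the Sst-only cells. UMIs count transcript ends and were not scaled to gene length. The members held 35754 UMIs, which is 0.107% of all UMIs. Kcnk16 alone held 26.3% of them, the top 5 members 60% and the top 10 members 74.2%, while 14 members had under 10 UMIs each.

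Summed over the 82 members, the level was 1469 and 1563 CPM in the insulin-only cells of libraries 1 and 2, and 1482 and 1457 in the Gcg-only cells. It was higher in the Sst-only cells, with 1718 and 1797, and in the Ppy-only cells, with 1858 and 1855. These 2 pairs of groups did not overlap between libraries, and no test was made of the sum. Cells with Gcg and Ppy stood at 1528 and 1446, near the Gcg-only cells, and cells with Sst and Ppy at 1807 and 1817, near the Sst-only cells. Cells without a hormone had 470 in library 1 and 849 in library 2. Without 2 very deep barcodes, described with those cells, library 2 stood at 461. The order of the hormone groups depends on the scale: over all UMIs, hormones included, the Sst-only cells were highest at 1554 and 1615, above the Ppy-only cells at 1202 and 1194 and the insulin-only cells at 914 and 916.

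The make-up of the sum is given by class, without a test. Two-pore genes made up 48.5% and 48.9% of it in the Ppy-only cells and 33.4% and 36.7% in the insulin-only cells. Auxiliary subunits made up 23.8% and 23.6% in the insulin-only cells, 21.5% and 25.7% in the Sst-only cells, and 10.5% and 8.43% in the Gcg-only cells. Calcium- and sodium-activated genes took 16.1% and 13.5% in the insulin-only cells and 7.42% and 7.65% in the Sst-only cells. Inward rectifiers, as far as they are members, took 2.69% to 4.47% in the 6 hormone groups.

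**Figure D1:**
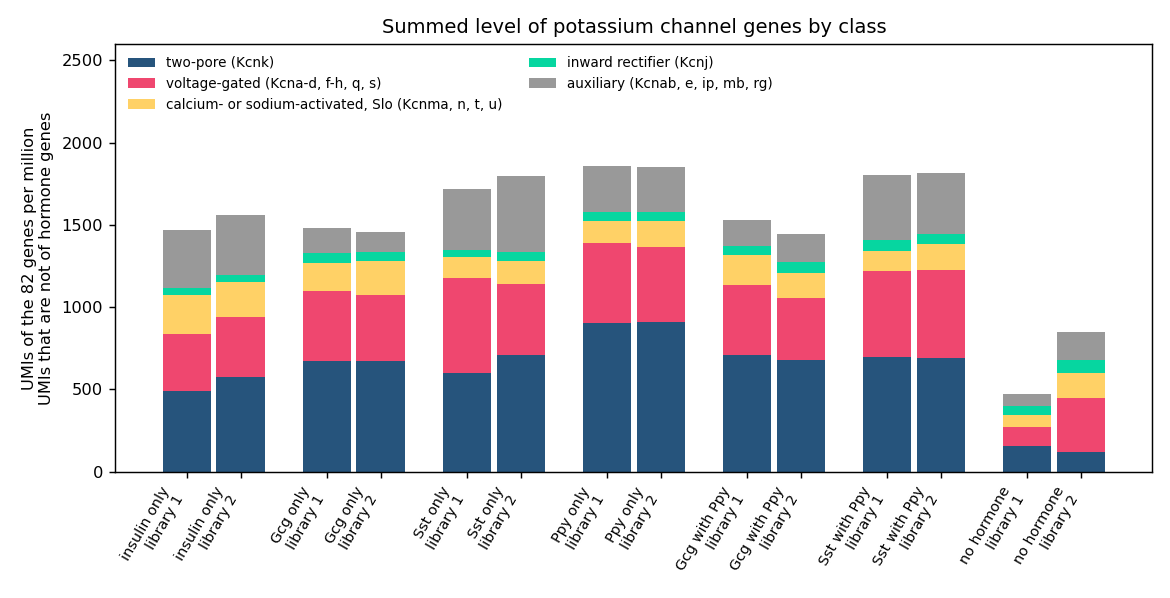
Summed level of the 82 potassium channel genes (y axis, CPM without hormone genes) in each hormone group and library (x axis), with each bar divided by class of gene. The Ppy-only bars are the highest at 1858 and 1855, the bars of both libraries lie close together in the hormone groups, and the no-hormone bars are lowest at 470 and 849.

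The question behind the comparisons was which channel genes differ between the endocrine cell types of the islet. UMIs were summed per library and group and tested with edgeR over all genes, with Benjamini-Hochberg adjustment. Of the 82 members, 49 passed the filter on low counts among 14955 genes. A member that passed only through the group where it is high had to differ, so the counts below are descriptions of the members tested. Between insulin-only and Gcg-only cells 23 of 49 members were called at an adjusted p below 0.05, against 25% of all genes tested. Of these, 12 were higher in insulin-only cells (12.8% of all genes) and 11 in Gcg-only cells (12.2%). With all UMIs, hormones included, as the library size and no TMM scaling, these became 8 and 12. Between insulin-only and Sst-only cells 15 were called, against 14.5% of all genes, with 5 higher in the former (7.48%) and 10 in the latter (6.97%), which became 4 and 19 on the other library size. Insulin-only and Ppy-only cells differed in 17 members, against 20.2% of all genes, with 7 higher in the former (10.3%) and 10 in the latter (9.87%), or 5 and 10 on the other library size. Gcg-only and Sst-only cells differed in 13 members, against 12.3%, with 5 higher in the former (6%) and 8 in the latter (6.31%), or 4 and 11 on the other library size. Sst-only and Ppy-only cells also differed in 13, against 9.08%, with 7 higher in the former (4.67%) and 6 in the latter (4.41%), or 11 and 5. Gcg-only and Ppy-only cells had the fewest, 8 against 9.49% of all genes, with 3 higher in the former (4.72%) and 5 in the latter (4.77%), or 4 and 3. On the other library size the share of all genes called was 32.2%, 34.3%, 20.4%, 16.6%, 23.2% and 11.1%, in the order of these pairs. Of those genes, 22.6%, 6.74%, 36.1%, 16.1%, 93.2% and 74% were higher in the group named first. In the main fit, 20, 14, 17 and 13 members in the first 4 of these pairs were called with a difference of at least 2-fold, against 14.9%, 10.1%, 12% and 8.86% of all genes. In Sst-only against Ppy-only cells they were 13, against 6.59%, and in Gcg-only against Ppy-only cells 7, against 4.82%. The median size of the log2 difference was 1.61 over the members and 0.47 over all genes tested for insulin-only against Gcg-only cells, and 0.64 against 0.35 for Gcg-only against Ppy-only cells. Members that passed the filter only through a high group enter with large values. The medians were not matched for level, so they too are descriptions only.

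Of the 49 members tested, 31 were called in at least 1 of the 6 pairs and 18 in none. By mean level, 17 were highest in Sst-only cells, 13 in insulin-only, 11 in Ppy-only and 8 in Gcg-only cells. Neither these counts nor the 31 called were set against all genes tested. The Sst-only sums are the smallest, so the counts are descriptions only. The rule for naming picked 39 members, of which 3 are not reported by name here. Of the members called, Kcnip2, Kcnj4 and Kcnk10 lie outside that rule, with 84, 79 and 63 UMIs, and are named here after their values were seen.

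**Figure D2:**
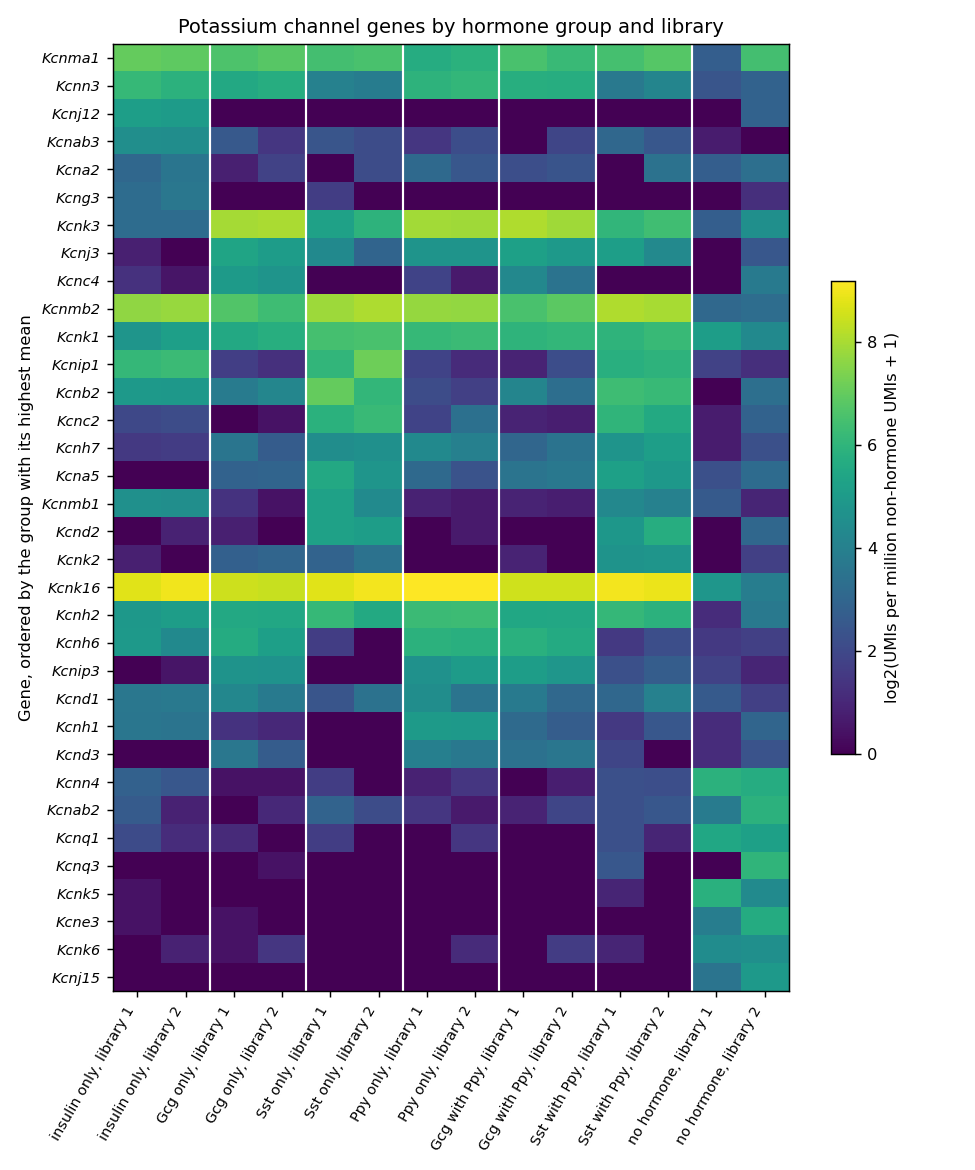
Heat map of the members named here by rule that hold at least 50 UMIs (rows, ordered by the group with the highest mean), by group and library (columns), coloured by log2(CPM + 1). Kcnk16 is bright in all 6 hormone groups, Kcnj12 only in the insulin-only columns among them, and the genes from Kcnn4 to Kcnj15 are brightest in a no-hormone column, which for Kcnq3 is that of library 2 only.

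The promoters of 4 members whose levels were distributed in different ways are shown, for the sequence around their starts. Kcnk16 held most UMIs, Kcnj12 was seen among the hormone groups in insulin-only cells, Kcnj3 was nearly missing from them, and Kcnd2 was high in cells with Sst. Each run covers 250 bases before to 50 bases after the start given by RefSeq, on GRCm38.p6 and 5′ to 3′ on the gene's strand. The spans are chr14:20269220-20269519 (minus strand) for Kcnk16, chr11:61065554-61065853 (plus) for Kcnj12, chr2:55435720-55436019 (plus) for Kcnj3 and chr6:21215096-21215395 (plus) for Kcnd2. The RefSeq starts differ from those of GENCODE M21 for 3 of the 4. The Kcnj12 span lies inside the GENCODE gene, 61022564 to 61071131. The Kcnk16 span lies wholly outside it, since the gene ends at 20269199 on the minus strand, and so does the Kcnd2 span, since the gene starts at 21215503. Capitals mark matches, on either strand, of GGGCGG (known as the GC box), of the letters CCAAT, of the TATA box letters TATAAA, and of TAATTA, which many homeodomain factors read.
Kcnk16: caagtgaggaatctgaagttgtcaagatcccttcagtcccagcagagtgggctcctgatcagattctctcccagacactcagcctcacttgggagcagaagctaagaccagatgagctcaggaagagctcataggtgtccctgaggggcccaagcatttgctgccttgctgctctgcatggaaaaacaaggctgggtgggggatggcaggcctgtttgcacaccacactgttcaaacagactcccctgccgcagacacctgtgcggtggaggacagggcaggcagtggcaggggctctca
Kcnj12: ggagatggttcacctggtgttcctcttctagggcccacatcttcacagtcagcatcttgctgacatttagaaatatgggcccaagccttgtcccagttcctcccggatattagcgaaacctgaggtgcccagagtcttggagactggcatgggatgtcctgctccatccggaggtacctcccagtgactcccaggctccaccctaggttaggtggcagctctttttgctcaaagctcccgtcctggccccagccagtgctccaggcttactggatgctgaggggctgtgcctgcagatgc
Kcnj3: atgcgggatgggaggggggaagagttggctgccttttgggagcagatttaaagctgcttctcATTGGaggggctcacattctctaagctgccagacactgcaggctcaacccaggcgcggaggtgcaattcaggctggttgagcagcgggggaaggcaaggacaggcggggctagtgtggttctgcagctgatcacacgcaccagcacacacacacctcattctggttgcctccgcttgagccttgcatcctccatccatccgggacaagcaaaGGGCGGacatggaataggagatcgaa
Kcnd2: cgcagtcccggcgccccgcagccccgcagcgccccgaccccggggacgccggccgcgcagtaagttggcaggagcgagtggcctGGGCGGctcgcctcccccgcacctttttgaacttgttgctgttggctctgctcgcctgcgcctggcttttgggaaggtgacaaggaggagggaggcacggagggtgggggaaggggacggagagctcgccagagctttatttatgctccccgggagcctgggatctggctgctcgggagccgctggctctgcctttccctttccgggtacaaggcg
Kcnj3 held 1 GC box and 1 CCAAT match and Kcnd2 held 1 GC box, while the windows of Kcnk16 and Kcnj12 held none of the 4 motifs. RefSeq gave 86 promoters for 62 of the members among 32851 in all. GGGCGG lay in 48.8% of the member promoters and 35.7% of all promoters, CCAAT in 32.6% and 37.4%, TATAAA in 5.81% and 13.6%, and TAATTA in 0% and 5.29%. These are counts of letters, not of bound sites.

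Among the two-pore channels, Kcnk16 encodes an alkaline-activated leak channel known from islets. Its gene lies at chr14:20261376-20269199. Its level was 440 and 514 CPM in the insulin-only cells of libraries 1 and 2, 361 and 340 in Gcg-only, 439 and 523 in Sst-only and 576 and 585 in Ppy-only cells. Cells without a hormone had 27.7 and 13.9, far under every hormone group. Gcg-only cells were below Ppy-only cells (log2 difference -0.71 ± 0.17, SE; edgeR adjusted p = 0.0124), and insulin-only above Gcg-only cells (0.48 ± 0.16, adjusted p = 0.0427). The latter call is lost with all UMIs as the library size (adjusted p = 0.581), without called doublets (0.0531) and without any 1 of 12 of the 14 sums (0.0504 to 0.302). The former is lost with all UMIs as the library size (0.0597) and without any 1 of its 4 sums (0.0899 to 0.162). After every cell was thinned to 4000 UMIs, a Kcnk16 UMI was found in 61.5% (95% exact interval 54.1 to 68.6) and 61.1% (53.7 to 68.0) of insulin-only cells, against 95.6% and 92.6% unthinned. In the no-hormone cells, which serve as a check for free RNA, the thinned shares were 2.20% and 3.26%. Their 74 Kcnk16 UMIs lay in 18 of 183 cells, with 16 in 1 cell, so free RNA was not told apart from expression. Median depths were 19642 and 17170 UMIs in the insulin-only cells and 13195 and 15015 in the no-hormone cells. Intervals cover counting error only.

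Kcnk3 encodes an acid-sensitive leak channel. It stood at 246 and 261 CPM in Gcg-only and 241 and 235 in Ppy-only cells, at 37.4 and 60.3 in Sst-only cells and at 8.49 and 8.42 in insulin-only cells. Insulin-only and Sst-only cells overlap neither each other nor the 2 high groups. Insulin-only cells were below Gcg-only cells (log2 difference -4.86 ± 0.32, edgeR adjusted p = 3e-08) and below Sst-only cells (-2.30 ± 0.49, adjusted p = 0.0048). The latter call is lost without Sst-only library 2 (adjusted p = 0.0862). The thinned share of cells with a Kcnk3 UMI was 48.4% and 52.3% in Gcg-only cells (84.6% and 87.9% unthinned). In insulin-only cells it was 1.65% (95% exact interval 0.341 to 4.74) and 1.05% (0.128 to 3.75), or 7.69% and 6.84% unthinned, and in no-hormone cells 0% (0 to 3.97) and 3.26% (0.678 to 9.23), so the thinned intervals overlap in each library. Of the 50 Kcnk3 UMIs in no-hormone cells of library 2, 40 came from the 2 very deep barcodes.

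Kcnk1, a weak leak channel, was lowest among the single-hormone groups in insulin-only cells, with 26.9 and 35.8 CPM. No-hormone cells had 34 and 19.5, with 52 of 54 and 37 of 42 UMIs in cells led by the ductal marker list. Gcg-only cells had 46.1 and 53.5, Ppy-only 70.5 and 75.1 and Sst-only cells 87.9 and 93.9. Insulin-only cells were below Sst-only cells (log2 difference -1.37 ± 0.27, edgeR adjusted p = 0.0025). Kcnk2, a stretch-sensitive channel, had 25.1 and 26.5 in cells with Sst and Ppy, 6.59 and 10.1 in Sst-only and 6.09 and 7.08 in Gcg-only cells, and 0 UMIs in Ppy-only cells. Gcg-only cells were at least 6.32-fold above Ppy-only cells, taking 3 UMIs over the group as the floor. The edgeR call between them is lost at a hormone threshold of 0.5% (adjusted p = 0.069), without cells with endothelial and leukocyte markers (0.0533), and without any 1 of its 4 sums (0.083 to 0.19).

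**Figure D3:**
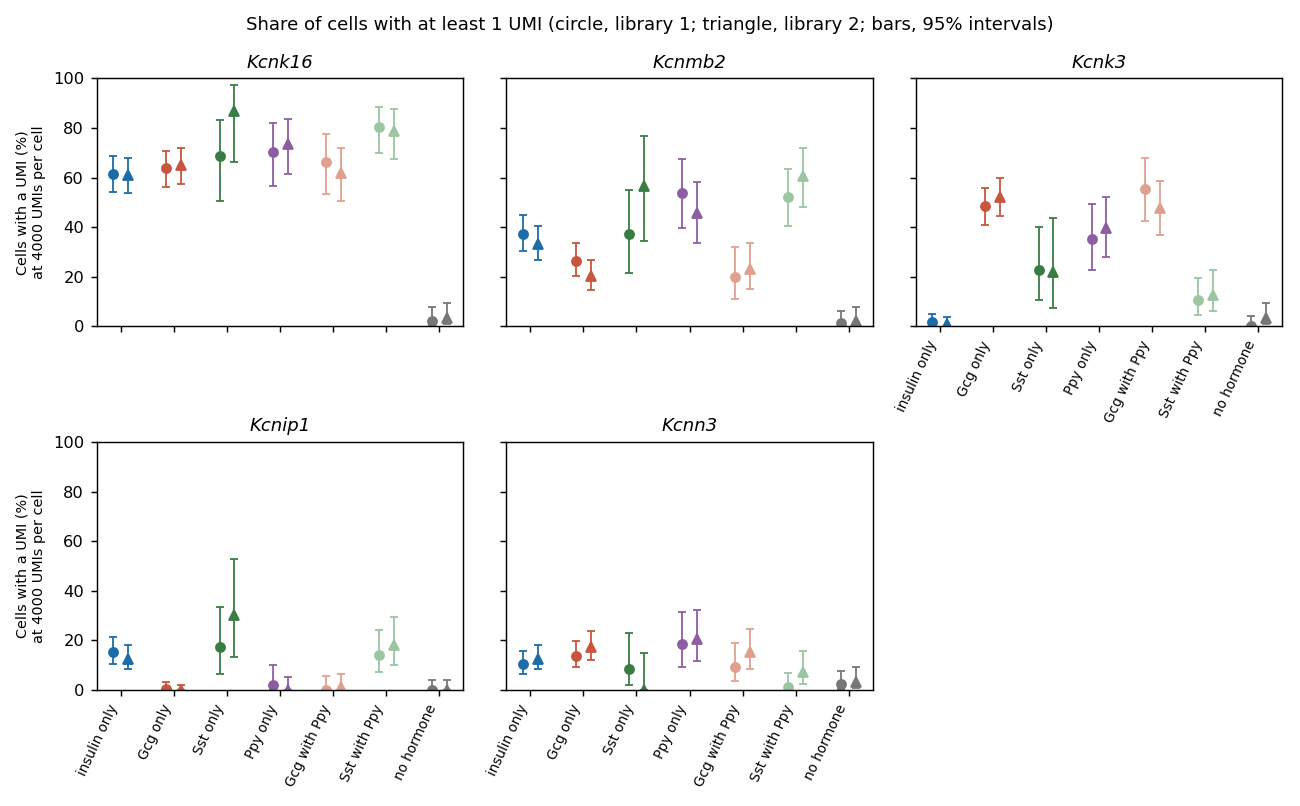
Share of cells with at least 1 UMI of 5 members (y axis, percent of cells after thinning to 4000 UMIs) by group (x axis), with circles for library 1, triangles for library 2 and bars for 95% exact intervals that cover counting error only. Kcnk16 is found in 61.1% to 87.0% of cells of the hormone groups, and Kcnk3 in 48.4% and 52.3% of Gcg-only cells but in 1.65% and 1.05% of insulin-only cells.

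Among the inward rectifiers, Kcnj12 encodes a strong one. It had 34.7 and 32.0 CPM in the insulin-only cells, from 170 UMIs, and 0 UMIs in the Gcg-only, Sst-only, Ppy-only and both mixed groups. Insulin-only cells were thus at least 60.7-fold above Gcg-only, at least 32.0-fold above Ppy-only and at least 8.40-fold above Sst-only cells, the bound being set by depth. These edgeR calls (adjusted p = 0.00069, 0.0024 and 0.025) were not made by DESeq2 (adjusted p = 0.337, 0.444 and 0.641), and that against Sst-only cells is also lost without any 1 of its 4 sums (adjusted p = 0.0967 to 0.178). Kcnj3, a subunit of the channels that G proteins open, showed the opposite order. It stood at 40.4 and 32.6 in Gcg-only and 25.8 and 25.8 in Ppy-only cells, against 0.738 and 0 in insulin-only cells. With 198 against 2 UMIs, the ratio of Gcg-only to insulin-only cells was 92.4 (95% counting interval 25.2 to 768). In Sst-only cells the level was 19.8 and 6.7, but these 11 UMIs came from 5 cells, with 5 of them in 1 cell. Kcnj6, another G-protein-gated subunit, ranged from 5.90 to 19.8 over the single-hormone groups and passed the test in no pair of them.

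Among the voltage-gated channels, Kcnb2 encodes a delayed rectifier. It had 127 and 67.0 CPM in Sst-only, 29.9 and 29.1 in insulin-only, 13.3 and 17.7 in Gcg-only and 3.44 and 2.35 in Ppy-only cells. The levels did not overlap between any of these groups, and Sst-only exceeded Ppy-only cells by 5.02 ± 0.69 on the log2 scale (edgeR adjusted p = 0.0002). Other Kcnb2 calls were less stable. That of insulin-only against Sst-only cells was lost under 3 alternatives, and that of Gcg-only against Ppy-only cells under 5. Both were also lost when single sums were left out. Kcng3, a silent subunit that joins the pores of such delayed rectifiers, had 8.49 and 11.4 in insulin-only cells and 0 UMIs in Gcg-only and Ppy-only cells, a difference of at least 17.9-fold and at least 9.41-fold. Sst-only cells had 1 UMI of it.

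The A-type genes, whose channels inactivate fast, were divided among the groups. Kcnd2 stood at 37.4 and 33.5 CPM in Sst-only cells and 27.9 and 52.1 in cells with Sst and Ppy, while insulin-only, Gcg-only and Ppy-only cells had 2, 2 and 1 UMIs. The ratio of Sst-only to Gcg-only cells was 97.6 (95% counting interval 24.5 to 847). Kcnd3 had 11.4 and 5.31 in Gcg-only and 14.6 and 11.7 in Ppy-only cells, and 0 UMIs in insulin-only cells, which were at least 14-fold and at least 21.9-fold lower. Kcnd1 was spread from 4.39 to 21.5 and passed the test in none of the 6 pairs.

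Channels of the Kcnc genes open at high voltage and close fast. Kcnc2 had 57.1 and 73.8 CPM in Sst-only cells, 2.58 and 9.38 in Ppy-only, 2.95 and 3.37 in insulin-only and 0 and 0.354 in Gcg-only cells. Kcnc4 had 31.2 and 25.9 in Gcg-only cells and 18.8 and 10.4 in cells with Gcg and Ppy, against 1.48 and 0.421 in insulin-only, 2.58 and 0.586 in Ppy-only and 0 UMIs in Sst-only cells. Gcg-only cells thus exceeded Ppy-only cells by 4.28 ± 1.03 on the log2 scale (adjusted p = 0.019), a call lost with DESeq2 (0.0981) and without any 1 of its 4 sums (0.102 to 0.254).

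Of the Kcna genes, which repolarise many excitable cells, Kcna5 had 46.1 and 26.8 CPM in Sst-only cells. It was at 6.48 and 6.73 in Gcg-only and 7.73 and 4.10 in Ppy-only cells, and at 0 UMIs in insulin-only cells, so that Sst-only cells were at least 65.2-fold higher than these. Kcna2 was higher in insulin-only cells, with 7.38 and 10.9, than in Gcg-only cells, with 0.762 and 2.48 (log2 difference 2.46 ± 0.84, edgeR adjusted p = 0.0435). This call is lost with DESeq2 (adjusted p = 0.156) and without any 1 of 10 of the 14 sums (0.0601 to 0.314).

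Kcnh genes encode channels of the ether-a-go-go type. Kcnh2 stood at 75.6 and 78.6 CPM in Ppy-only, 70.3 and 46.9 in Sst-only, 45.3 and 44.6 in Gcg-only and 29.2 and 34.1 in insulin-only cells. Insulin-only cells were below Ppy-only cells (log2 difference -1.23 ± 0.32, edgeR adjusted p = 0.012), a call lost without any 1 of its 4 sums (0.0655 to 0.128). Kcnh6 was shared by insulin-only (30.3 and 19.8), Gcg-only (49.5 and 35.4) and Ppy-only cells (59.3 and 54.5). Sst-only cells held 1 UMI of it, and the ratio of Gcg-only to Sst-only cells was 31.8 (95% counting interval 5.65 to 1261). Kcnh7 was low in insulin-only cells, with 1.85 and 2.11, against 22.0 and 23.5 in Sst-only and 19.8 and 15.2 in Ppy-only cells. Gcg-only cells held 44 UMIs of it and insulin-only cells 10. The edgeR call between these 2 groups is lost with DESeq2 (adjusted p = 0.0505) and without cells with endothelial and leukocyte markers (0.0887). It is also lost without either insulin-only library and without Gcg-only library 1. Kcnh1 was highest in Ppy-only cells with 30.9 and 30.5, followed by insulin-only cells with 11.1 and 10.5 and Gcg-only cells with 1.52 and 1.06. Sst-only cells had 0 UMIs. Gcg-only cells were below Ppy-only cells (-4.48 ± 0.62, adjusted p = 0.00033).

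**Figure D4:**
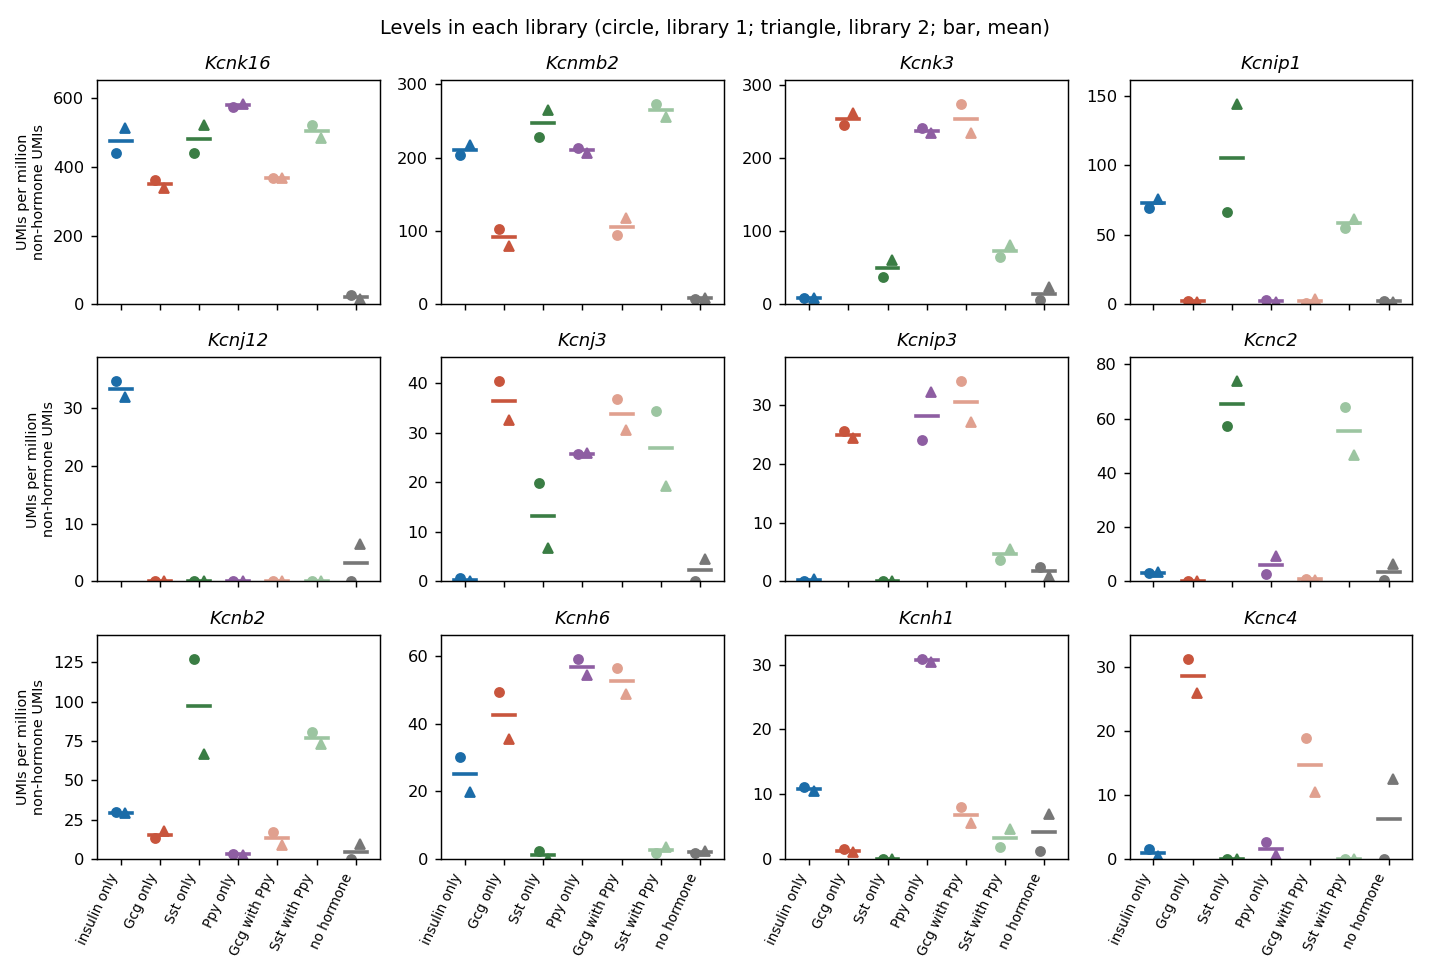
Levels of 12 members (y axes, CPM without hormone genes, each panel on its own scale from 0) by group (x axis), with circles for library 1, triangles for library 2 and bars for their mean. Kcnj12 is above 0 in the insulin-only cells alone among the hormone groups, Kcnip3 is highest in the Gcg-only, Ppy-only and Gcg with Ppy cells, as is Kcnh6, which insulin-only cells also hold, and Kcnc2 and Kcnb2 are highest with Sst.

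Among the calcium-activated channels, Kcnma1, the pore of the large-conductance channel, had 127 and 120 CPM in insulin-only, 97.1 and 110 in Gcg-only, 85.7 and 93.9 in Sst-only and 50.7 and 58.0 in Ppy-only cells. None of the 6 pairs passed the test: insulin-only against Ppy-only cells gave 1.23 ± 0.52 on the log2 scale (edgeR adjusted p = 0.114). The fit shares the spread of a gene over all groups, and Kcnma1 had 5.66 and 85.2 in no-hormone cells. The part of that spread in these results was not tested, so the lack of a call does not show equal levels. The auxiliary subunit Kcnmb2 of this channel was at 204 and 217 in insulin-only, 229 and 265 in Sst-only and 213 and 206 in Ppy-only cells. Gcg-only cells had 102 and 79.7 and were lower than Sst-only cells (log2 difference -1.30 ± 0.17, adjusted p = 6.9e-05). Kcnn3, a small-conductance channel, was low in Sst-only cells with 15.4 and 13.4, against 70.1 and 59.0 in insulin-only, 45.3 and 51.7 in Gcg-only and 61.0 and 67.4 in Ppy-only cells. Insulin-only cells exceeded Sst-only cells by 2.30 ± 0.32 (adjusted p = 0.00015). The sodium-activated Kcnt1 had 49 UMIs and was not tested.

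Among the auxiliary subunits, Kcnip1 and Kcnip3 bind calcium and fast-inactivating pores. Kcnip1 stood at 69.4 and 75.8 CPM in insulin-only and 65.9 and 144 in Sst-only cells, against 2.29 and 1.42 in Gcg-only and 2.58 and 1.17 in Ppy-only cells. Kcnip3 stood at 25.5 and 24.4 in Gcg-only and 24.1 and 32.2 in Ppy-only cells, against 0 and 0.421 in insulin-only cells and 0 UMIs in Sst-only cells. Insulin-only cells were above Gcg-only cells by 5.28 ± 0.42 on the log2 scale for Kcnip1 (edgeR adjusted p = 2.2e-07). For Kcnip3 the ratio of Gcg-only to insulin-only cells, from 136 and 1 UMIs, was 127 (95% counting interval 22.4 to 5048). Kcnmb1, a subunit of the large-conductance channel known from smooth muscle, had 23.3 and 22.3 in insulin-only and 37.4 and 20.1 in Sst-only cells, against 1.52 and 0.354 in Gcg-only and 0.859 and 0.586 in Ppy-only cells. Kcnmb1 (chr11:33963013-33973641, plus strand) lies inside Kcnip1 (chr11:33629339-33993152, minus strand). No source used here says that strand was used in counting, so reads of the 2 genes may not be told apart where exons overlap. Kcnab3, a cytoplasmic beta subunit, had 22.1 and 21.5 in insulin-only cells and 1.72 to 4.95 in the other single-hormone groups. Insulin-only cells exceeded Gcg-only cells by 2.72 ± 0.59 (adjusted p = 0.003), a call lost without Gcg-only library 2 (0.0948). An antisense RNA overlaps this gene, and its reads may not be told apart.

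Cells with Gcg and Ppy were compared with Gcg-only cells, and cells with Sst and Ppy with Sst-only cells. In both comparisons edgeR called 0 of 49 members, against 0.0401% of all genes (0.0334% higher with Gcg and Ppy, 0.00669% higher with Gcg only) and 0.0134% (all higher with Sst and Ppy; 0.00669% at 2-fold or more), and DESeq2 also called 0. At an unadjusted p below 0.05 there were 2 and 3 of 49 members, against 5.64% and 6.49% of all genes. The 2 in the first comparison were Kcnk2, at 0.896 and 0 CPM with Gcg and Ppy against 6.09 and 7.08 with Gcg only, and Kcnh1, at 8.06 and 5.56 against 1.52 and 1.06. Neither passed the adjustment (edgeR adjusted p = 0.631 and 0.673). Kcnip3 in the cells with Sst and Ppy was at 3.72 and 5.49, where Sst-only cells had 0 UMIs (adjusted p = 0.719).

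Cells without a hormone were a mixture. By the marker list with most UMIs they were endothelial in 27 and 33 cells, leukocyte in 42 and 41, ductal in 12 and 12, stellate and mural in 7 and 2, acinar in 1 and 0 and Schwann in 0 and 2 cells of libraries 1 and 2. The other 2 and 2 cells had under 5 marker UMIs. Against the mean of the single-hormone groups, 32 of 49 members were called, with 59.7% of all genes called in that comparison. Of these, 20 were higher in the single-hormone groups (26.3% of all genes) and 12 in the no-hormone cells (33.4%). All 32 differed by at least 2-fold, as did 40.5% of all genes. The fit averages logs, so a gene at 0 in some hormone groups is pulled down: Kcnj12 was called as higher in no-hormone cells although its arithmetic mean is higher in the hormone groups. All 14 Kcnj12 UMIs of the no-hormone cells lay in library 2, and 13 of them in the 2 very deep barcodes. Without these barcodes its level there is 0.53 CPM in place of 6.49. By arithmetic means, 11 of the 12 members were higher in no-hormone cells in both libraries.

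Kcnn4, the intermediate-conductance channel of lymphocytes and epithelia, had 59.1 and 50.5 CPM in no-hormone cells and at most 6.27 in single-hormone groups. Its UMIs lay in leukocyte-list cells (49 and 50) and ductal-list cells (45 and 59). Kcnq1, a slow voltage-gated pore, had 43.4 and 36.1, with 52 and 46 UMIs in ductal-list and 16 and 32 in endothelial-list cells. Kcne3, which assembles with Kcnq1 in epithelia, had 13.8 and 50, with 18 and 103 UMIs in ductal-list cells. Of its 130 UMIs, 40.8% came from 1 cell.

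Kcnk5, an alkaline-activated leak channel, had 56.0 and 19.9 CPM, with 50 and 24 UMIs in endothelial-list and 34 and 10 in ductal-list cells. Kcnj15, an inward rectifier, had 10.7 and 30.6, with 15 and 66 UMIs in endothelial-list cells, and 0 UMIs in all 6 hormone groups. Kcnk6, a relative of Kcnk1, had 21.4 and 23.2 and was divided between endothelial-list (15 and 24) and leukocyte-list cells (18 and 17). Kcnab2, a cytoplasmic beta subunit, had 13.2 and 58.8, with 20 and 66 UMIs in leukocyte-list cells. Of its 127 UMIs in library 2, 59 came from the 2 very deep barcodes, and without them the level is 36.1. Stellate and mural cells of library 1 held 24 UMIs of Kcnj8 and all 27 of Kcne4, which had too few to be tested.

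Library 2 held 2 barcodes led by the Schwann list, with 177513 and 96154 UMIs, ranks 1 and 8 of that library by depth. They had 437 and 212 UMIs of Snap25, a gene of neurons and endocrine cells, and the name of the list is not used for them. All 31 UMIs of Kcna1 and all 27 of Kcna6 came from them, as did 137 of 139 Kcnq3 UMIs and 174 of 193 Kcnma1 UMIs of the no-hormone cells. Kcnma1 in no-hormone cells was accordingly at 5.66 in library 1 and 85.2 in library 2. They also held all 27 Kcnc4 UMIs of that group.

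Other genes of potassium transport were taken as a list of 32, of which 24 were tested. In the pairs, 11 of them differed between insulin-only and Gcg-only cells, against 25% of all genes called, with 8 higher with insulin (12.8% of all genes). Insulin-only and Sst-only cells differed in 6, against 14.5%, with 5 higher with Sst (6.97%). Insulin-only and Ppy-only cells differed in 8, against 20.2%, with 5 higher with insulin (10.3%). Gcg-only and Sst-only cells differed in 10, against 12.3%, with 8 higher with Sst (6.31%). Gcg-only and Ppy-only cells differed in 3, against 9.49%, with 2 higher with Ppy (4.77%). Sst-only and Ppy-only cells differed in 9, against 9.08%, with 8 higher with Sst (4.67%). These counts were not made with all UMIs as the library size. Dpp6 and Dpp10 encode partners of the A-type Kcnd pores. Dpp6 stood at 455 and 520 CPM in Sst-only cells and between 3.79 and 13.7 in the other single-hormone groups, and Kcnd2 was also highest in the Sst-only cells among these. Dpp10 stood at 176 and 154 in Gcg-only and 90.1 and 124 in Sst-only cells, against 21.4 and 17.3 in insulin-only and 8.59 and 7.04 in Ppy-only cells. Gcg-only exceeded Ppy-only cells by 4.43 (log2; edgeR adjusted p = 3.9e-08). Both groups carried Kcnd3. Hcn4, a cation channel opened by hyperpolarisation, had 26.2 and 28.2 in insulin-only and 37.4 and 13.4 in Sst-only cells. It had 1.90 and 1.42 in Gcg-only and 2.58 and 2.35 in Ppy-only cells. Slc12a7, a potassium-chloride cotransporter, had 80.1 and 75.4 in insulin-only and 65.9 and 50.3 in Sst-only cells. Its level was 14.1 and 10.6 in Gcg-only and 18.0 and 17.0 in Ppy-only cells. Neither gene was called between insulin-only and Sst-only cells (edgeR adjusted p = 0.858 and 0.138).

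The 33 members that were not tested had at most 145 UMIs each over all cells, the highest being Kcnq3. They included Kcns3, a silent subunit with 3 UMIs. For these members a level near 0 in a group says only that the gene was not detectable at this depth: a count of 0 allows up to 3 UMIs in a group.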

How the data were processed

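Islets of C57BL/6J mice were dissociated and 2 libraries were prepared by RevGel-seq. Per the labels and the study's methods, the deposited counts are whole numbers of deduplicated transcripts (UMIs) per gene and cell barcode, made by the authors with exon-only alignment to GRCm38 and cell barcodes found with UMI-tools. Whether strand was used is not given in the sources used here. Barcodes below the knee of depth were not used here. Levels in the no-hormone cells are the only stand-in for free RNA. These cells are a mixture of types that can express members themselves, so free RNA was not measured apart.

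All deposited barcodes were used, and doublets called by Scrublet (8 in each library) were kept. The members, the marker and gene lists and the tests were chosen with earlier results of these data known. Some genes of the family are not reported here. Hormone groups were set at 1% of UMIs. UMIs were summed per library and group (14 sums of 298300 to 2823605 UMIs, hormone genes left out) and tested in 1 fit with edgeR 4.0.16 in R 4.3.3 (filterByExpr, TMM, glmQLFit, glmQLFTest, Benjamini-Hochberg over 14955 genes, threshold 0.05, 7 residual degrees of freedom). SE is the log2 difference divided by the root of F. Ratios for groups with 1 to 3 UMIs have exact counting intervals, and bounds take 3 UMIs over the group as the floor. The fit was also run on simulated sums. These had less spread than the real sums and changes in the insulin-only cells alone, so they do not give the error rate of the calls here. Members were named if called in a pair of single-hormone groups at 2-fold or more, in the same direction in both libraries, with at least 100 UMIs, if among the 10 with most UMIs, if at least 4-fold above all single-hormone groups in no-hormone cells with at least 50 UMIs, or if the most abundant of their symbol stem. Alternatives were DESeq2 1.42.0, no filter, a replicate block, library sizes over all UMIs without TMM, hormone thresholds of 0.5% and 2%, removal of called doublets or of cells with 3 or more endothelial and leukocyte marker UMIs, unthinned cells, and leaving out a library. Leaving out 1 sum at a time and removing 2 deep barcodes were chosen after seeing the data.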

Additional observations from a re-analysis of the deposited data

How the results depend on the processing

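Of 85 log2 differences of named members called in a pair of single-hormone groups, 25 lost their call under at least 1 alternative with a test. The other 60 lost it under none. This count leaves out the fits without 1 sum and without the 2 deep barcodes, which are given below. Not all 85 had a value with DESeq2, with all UMIs as library size or without cells with endothelial and leukocyte markers. A difference without a value was counted there as not lost. Of 843 alternative values, 0 changed sign. DESeq2 called 16, 10, 12, 13, 6 and 13 members in the 6 pairs in place of 23, 15, 17, 13, 8 and 13, while the share of all genes called was 8.15%, 5.08%, 6.7%, 4.54%, 3.2% and 3.24% in place of 25%, 14.5%, 20.2%, 12.3%, 9.49% and 9.08%, over a longer list of 31613 genes. With all UMIs as library size and no TMM, insulin-only against Sst-only cells gave 23 members in place of 15. That scaling moved the median of all genes by -0.73 to 0.58 on the log2 scale in the 6 pairs. It gave 5179 genes in place of 2161 for insulin-only against Sst-only and 3506 in place of 1358 for Sst-only against Ppy-only cells. Without cells that carried endothelial and leukocyte markers the 6 pairs gave 18, 10, 14, 13, 5 and 11 members, with 22.9%, 13.3%, 17.6%, 10.9%, 8.17% and 7.36% of all genes called. The 2 mixed comparisons then gave 0 members each, against 0.0441% and 0.00736% of all genes, and hormone against no-hormone cells 27, against 58.8%.

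Leaving out 1 sum of the groups compared, which leaves a group with 1 sum assumed to vary like the others, gave 13 to 16 members for insulin-only against Gcg-only, 8 to 10 for insulin-only against Sst-only, 11 to 13 for insulin-only against Ppy-only, 9 to 12 for Gcg-only against Sst-only, 2 to 3 for Gcg-only against Ppy-only, 9 to 11 for Sst-only against Ppy-only, 0 to 0 for both mixed groups, and 33 to 39 for hormone against no-hormone cells. The share of all genes called fell in the same fits of the 6 pairs, to 12.8% to 14.9%, 6.93% to 8.83%, 9.43% to 11.3%, 6.14% to 7.81%, 3.09% to 3.83% and 4.07% to 5.08%. The lowest were without Gcg-only library 2 (13), without insulin-only library 2 (8), without either Ppy-only library (11), and without either Gcg-only library or Ppy-only library 2 (2). Insulin-only against Sst-only cells gave 9 without either Sst-only library, and Gcg-only against Ppy-only cells gave 3 without Ppy-only library 1. Of the 85 differences, 38 lost their call without at least 1 of the 14 sums, whichever its group, and 0 changed sign. For hormone against no-hormone cells, the fits without 1 of its sums called more members but a lower share of all genes than the 59.7% of the main fit. More genes passed the filter in those fits. Without the 2 deep barcodes the counts were 24, 17, 19, 16, 11, 14, 0, 0 and 34, and the share of all genes called rose too, to 28.3%, 16%, 23.1%, 13.8%, 11.9% and 10.7% in the 6 pairs. For the 2 mixed comparisons that share was 0.0935% and 0.0267%, and for hormone against no-hormone cells 62.3%. Without a whole library no test could be made, since each group then has 1 sum.

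The replicate numbers did not pair the sums: over 21 pairs of groups, the correlation of deviations from the group means ran from -0.063 to 0.112. With library number as a replicate block the counts were 24, 14, 16, 13, 7, 12, 0, 0 and 32, with 24.9%, 13.9%, 19.8%, 11.9%, 9.23% and 8.73% of all genes called in the 6 pairs. The share was 0.0468% and 0.0134% in the mixed comparisons and 59.1% for hormone against no-hormone cells. The 2 mixed comparisons called 0 members under every alternative, although without the filter on low counts they called 153 and 66 genes of all in place of 6 and 2.

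The summed level as CPM of all UMIs was 915 in insulin-only, 1103 in Gcg-only, 1584 in Sst-only, 1198 in Ppy-only, 1085 in Gcg with Ppy and 1535 in Sst with Ppy cells. At a hormone threshold of 0.5% it was 1621 in Sst-only and 1868 in Ppy-only cells, at 2% it was 1847 in Ppy-only and 1794 in Sst with Ppy cells, and without doublets it was 1825 in Sst with Ppy cells. In unthinned cells the share with a Kcnk16 UMI was 94.1% in insulin-only, 96.3% in Gcg-only, 96.4% in Sst-only, 100% in Ppy-only, 98.6% in Gcg with Ppy, 98.0% in Sst with Ppy and 9.84% in no-hormone cells. The causes were not tested. Depth limits most members: the Sst-only sums are the smallest, so bounds against them are weak.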
